A study of Mus musculus with 6 samples.

Results

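Receptors and bridging ligands that macrophages use to bind dying cells, lipoproteins and other particles were followed through single-cell libraries of sorted mouse brain myeloid cells. The 10 genes, *Mertk*, *Axl*, *Gas6*, *Pros1*, *Stab1*, *Cd36*, *Lrp1*, *Msr1*, *Cd163* and *Mrc1*, were chosen by symbol for their known roles from the 32285 genes in the files, and all 10 were found. The cells came from 3 male C57BL/6J mice at postnatal day 89 (P89), from whole brain, by cold Dounce homogenization, a mechanical dissociation on ice. A cocktail of transcriptional and translational inhibitors was present in mouse 2 (DNC-INHIB) and absent in mice 1 and 3 (DNC-NONE). Live CD45+/CD11b+ cells were sorted with a wide gate, and those of each mouse were captured with the 10X Genomics 3′ kit V3.0 and with V3.1. This gave 6 libraries, 3 per kit and 2 per mouse, for which the study asked whether the kit version changes microglial profiles. No gene was deleted and no treatment other than the inhibitors was given.

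Cells that die by apoptosis expose phosphatidylserine, a lipid that healthy cells keep on the inner face of the membrane. The ligands Gas6 and protein S (*Pros1*) bind it and bridge the dying cell to the receptor tyrosine kinases Mertk and Axl on the phagocyte. Scavenger receptors take up modified lipoproteins, haemoglobin complexes and glycoproteins. In the brain, microglia populate the parenchyma, while border macrophages line the vessels, meninges and choroid plexus and are known for scavenger receptors such as Cd163 and the mannose receptor Mrc1.

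The promoters of 9 of the 10 genes were found in the RefSeq table of build GRCm38.p6, each from 250 bases before to 50 bases after a transcript start. Those of *Mertk* and *Pros1*, which were lower in border macrophages than in microglia, and of *Mrc1* and *Cd163*, which were higher, are shown because they differ in CpG content. These 4 were picked after their values were seen. Capitals mark each CG dinucleotide, and sequences run 5′ to 3′ on the gene's own strand.
*Mertk*, chr2:128698665-128698964, plus strand: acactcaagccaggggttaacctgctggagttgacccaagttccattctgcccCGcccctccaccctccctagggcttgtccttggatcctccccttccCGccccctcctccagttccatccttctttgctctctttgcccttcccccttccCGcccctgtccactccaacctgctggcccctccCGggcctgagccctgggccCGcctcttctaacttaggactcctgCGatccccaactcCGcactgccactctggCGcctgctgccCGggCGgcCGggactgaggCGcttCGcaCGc
*Pros1*, chr16:62854057-62854356, plus strand: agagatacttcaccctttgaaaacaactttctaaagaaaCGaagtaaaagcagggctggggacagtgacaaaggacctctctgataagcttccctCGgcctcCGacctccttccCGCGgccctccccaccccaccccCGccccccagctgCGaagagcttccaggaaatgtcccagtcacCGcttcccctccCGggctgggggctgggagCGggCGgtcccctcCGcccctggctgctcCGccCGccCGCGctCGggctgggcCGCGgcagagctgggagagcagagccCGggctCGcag
*Mrc1*, chr2:14229164-14229463, plus strand: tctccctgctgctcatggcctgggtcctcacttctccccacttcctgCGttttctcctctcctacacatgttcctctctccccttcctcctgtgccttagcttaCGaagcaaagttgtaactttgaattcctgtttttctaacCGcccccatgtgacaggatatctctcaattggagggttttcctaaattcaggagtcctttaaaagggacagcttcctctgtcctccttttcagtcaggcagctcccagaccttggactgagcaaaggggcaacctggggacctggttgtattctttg
*Cd163*, chr6:124304401-124304700, plus strand: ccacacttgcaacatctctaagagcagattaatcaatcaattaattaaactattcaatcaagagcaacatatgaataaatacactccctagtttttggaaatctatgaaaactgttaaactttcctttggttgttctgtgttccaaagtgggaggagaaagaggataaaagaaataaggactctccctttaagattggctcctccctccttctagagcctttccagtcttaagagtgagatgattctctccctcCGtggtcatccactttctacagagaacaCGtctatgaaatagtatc

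The *Mertk* window held 14 CG dinucleotides and the *Pros1* window 21, against a median of 7 over the 32851 mouse promoters in the table. *Mrc1* held 3 and *Cd163* held 2. Of all promoters, 63.7% had fewer CG than *Mertk*, 75.2% fewer than *Pros1*, 23.3% fewer than *Mrc1* and 14.1% fewer than *Cd163*. Of the other 5 genes, *Gas6* held 17, *Lrp1* 16, *Stab1* 7, *Axl* 6 and *Cd36* 3. CpG number did not order the genes by cell type, since *Gas6* had one of the higher counts and was higher in border macrophages. The letters GAGGAA, the core of sites bound by PU.1, a transcription factor of myeloid cells, were searched on both strands. They stood in 3 of the 9 windows (*Mrc1*, with 3 matches, *Axl* and *Stab1*) and in 28.3% of all promoters. The half-site TGCTGA of MAF factors was found in 2 of 9 (*Cd36* and *Stab1*) and in 19.5% of all. TATAAA was found in 0 of 9 and in 13.6% of all, and CACGTG in 0 of 9 and in 7.15% of all. These matches describe letters within the windows, and no binding was measured.

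The libraries held 29412 barcodes called as cells, with between 6275898 and 18872816 UMIs (unique molecular identifiers, each standing for 1 captured RNA molecule) per library. Keeping barcodes that held 1000 to 4000 genes, up to 12000 UMIs and up to 15% of UMIs from mitochondrial genes left 19725 cells. In the V3.0 library of mouse 3, 21.5% of barcodes passed, against 70.0% to 76.8% in the other libraries, so values without it are given where a result rests on it. Pairs of libraries shared between 1 and 14 barcodes. Cells were assigned by UMIs of marker genes that include none of the 10 genes, with cells carrying markers of a second type left ungated. This gave 17795 microglia (*Tmem119*, *P2ry12* and 5 other markers), 304 neutrophils (*S100a8*, *S100a9*, *Retnlg*, *Wfdc21*) and 19 border macrophages (*Pf4*, *Ms4a7*, *F13a1*, *Cbr2*, *Clec4n*). The border macrophages numbered 5, 11 and 3 in mice 1, 2 and 3 and summed to 20834, 59169 and 10610 UMIs, so a single UMI weighs most in mouse 3. As sums, markers not used for the assignment followed it. The 7 check genes of border macrophages, among them *Apoe*, *Lyve1* and *Dab2*, summed to between 36004 and 57648 CPM (UMIs per 1000000 UMIs of the cell type) in them. In microglia they summed to between 454 and 614. *Apoe* made up most of the border macrophage sums, at 47710, 55418 and 33176 CPM in mice 1, 2 and 3. *Folr2* was at 0 in mouse 3, and *Fcgrt* in mouse 2 was at 84.5 CPM, below the 93.9 of microglia. The check genes otherwise lay above microglia in each mouse. In border macrophages the neuronal, endothelial and erythroid lists, not used for the assignment, were at 0 UMIs. In microglia these lists summed to 1.22 to 1.35, 22.7 to 27.8 and 0 to 5.55 CPM. A single border macrophage UMI is 16.9 CPM in mouse 2 and 94.3 in mouse 3, so 0 UMIs does not show lower levels than in microglia. In the border macrophages of mouse 2 astrocyte markers summed to 16.9 CPM and oligodendrocyte markers to 67.6, and both were at 0 in mice 1 and 3. Astrocyte markers summed to 218 to 229 CPM in microglia. The monocyte markers (*Ly6c2*, *Ccr2*, *Plac8*, *Chil3*) and the 6 lymphocyte markers were also at 0, but the assignment itself limits these. The neutrophil markers of the assignment summed to between 283 and 480 CPM in border macrophages. Microglial check genes summed to between 11593 and 19875 CPM in border macrophages and to between 79434 and 83576 in microglia.

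Border macrophages and microglia divided most of these genes between them. Levels are given in CPM and are compared within a gene, not between genes. Of the 10 genes, 9 passed the filter on low counts in the comparison of border macrophages against microglia, which was made on UMIs summed per mouse (edgeR quasi-likelihood test, Benjamini-Hochberg adjustment over 7827 genes). A gene was called where its log2 fold change exceeded 0.58 in size with an adjusted p under 0.05. Of the 9, 6 were called higher in border macrophages (*Gas6*, *Stab1*, *Cd36*, *Msr1*, *Cd163*, *Mrc1*) and 2 were called lower (*Mertk*, *Pros1*). *Cd36*, *Msr1*, *Cd163* and *Mrc1* passed the filter only through their border macrophage sums. For them a call of lower was not possible, so their calls add nothing to the levels themselves. They also enter the median given below. Over all genes tested, 3.74% were called higher and 4.47% lower, 8.22% in either direction. Over the 9 genes the median change was 2.69 on the log2 scale, where that over all genes was −0.54 with TMM scaling, −0.43 with RLE factors and −0.49 without factors. Without the V3.0 library of mouse 3 the calls were again 6 higher and 2 lower, and DESeq2 gave the same numbers. A stricter gate left 1 border macrophage per mouse, and there 0 of the 10 genes were called higher and 3 lower, with *Cd36*, *Msr1*, *Cd163* and *Mrc1* below the filter on low counts. The V3.0 libraries alone gave 3 higher and 1 lower, with *Cd36*, *Msr1* and *Cd163* below the filter. The plot of levels per mouse shows each value.

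**Figure D1:**
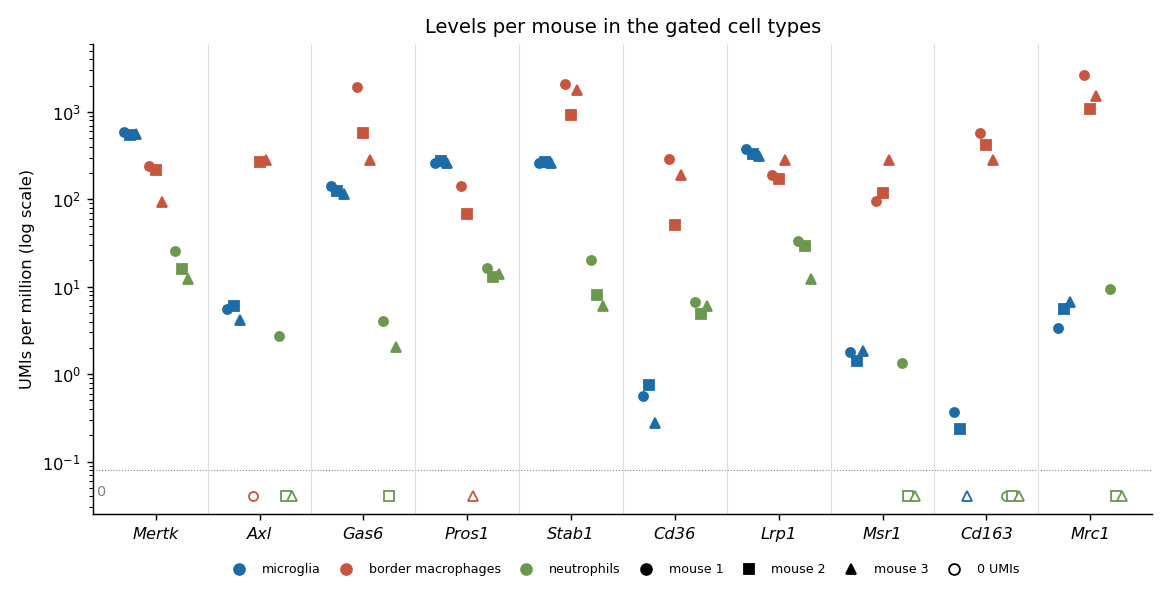
CPM (vertical axis, log scale) of the 10 genes in microglia, border macrophages and neutrophils, 1 point per mouse, with open symbols below the dotted line for sums with 0 UMIs. *Mrc1* lies between 1082 and 2639.9 in border macrophages and between 3.40 and 6.73 in microglia, while *Mertk* lies between 542 and 588 in microglia and between 94.3 and 240.0 in border macrophages.

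*Mertk* (ENSMUSG00000014361, GRCm38 chromosome 2, 128698956 to 128802894, plus strand) encodes a receptor tyrosine kinase that starts engulfment of apoptotic cells. It reached 588, 542 and 566 CPM in the microglia of mice 1, 2 and 3, and 240.0, 219.7 and 94.3 in their border macrophages. Every microglial value lay above every border macrophage value. The log2 fold change was −1.49 (standard error 0.34, adjusted p = 0.00144, edgeR). The border macrophage values rest on 5, 13 and 1 UMIs, and with each cell drawn down to 2000 UMIs the change was −1.20 (adjusted p = 0.0542) and was not called.

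*Axl* (ENSMUSG00000002602, chromosome 7, 25757273 to 25788705, minus strand), the related kinase that responds chiefly to Gas6, went the other way in the mice where it was seen. Its border macrophage sums held 0, 16 and 3 UMIs, or 0, 270.4 and 283 CPM, against 5.54, 6.09 and 4.12 in microglia. The border macrophages of mouse 1 thus fell below microglia and those of mice 2 and 3 above. The sum at 0 came from 5 cells, and it left *Axl* out of the comparison through the filter on low counts. Over the 3 mice together border macrophages reached 209.7 CPM (exact Poisson 95% interval 126 to 327), 39.1 times the microglial 5.37 (4.82 to 5.96), where the intervals cover counting error only. The fits that did test it left out the filter, left out mouse 1 or used a wider gate with 38 border macrophages. In them *Axl* was called higher, with a log2 fold change between 5.02 and 5.76 (edgeR, adjusted p from 2.00e-19 to 3.46e-13). Microglial *Axl* lies below the filter's limit, so fits with the filter test it only where border macrophages are high.

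The 2 ligands split. *Gas6* (ENSMUSG00000031451, chromosome 8, 13465374 to 13494490, minus strand) gave 1919.9, 575 and 283 CPM in border macrophages and 141, 124 and 116 in microglia. All 3 border macrophage sums lay above all microglial ones, but they spanned a wide range, 926 ± 873 (SD, n = 3). The log2 fold change was 2.69 (standard error 0.28, adjusted p = 5.01e-12, edgeR). A stricter gate, which left 3 border macrophages, gave −0.60 (adjusted p = 0.592). *Pros1* (ENSMUSG00000022912, chromosome 16, 62854307 to 62929346, plus strand), which also serves as a plasma anticoagulant, gave 264, 277 and 263 in microglia and 144, 67.6 and 0 in border macrophages, with no overlap. The log2 fold change was −1.85 (standard error 0.48, adjusted p = 0.00659, edgeR). That call rests on 7 UMIs in border macrophages, and it was lost without mouse 2 (log2 fold change −2.05, adjusted p = 0.0945) and with the V3.0 libraries alone (−1.52, adjusted p = 0.0826).

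The scavenger receptors *Cd163*, *Mrc1*, *Cd36* and *Msr1* were nearly absent from microglia. *Cd163* (ENSMUSG00000008845, chromosome 6, 124304656 to 124330527, plus strand), which takes up haemoglobin bound to haptoglobin, gave 576, 423 and 283 CPM in border macrophages and 0.373, 0.234 and 0 in microglia. Its log2 fold change was 10.81 (standard error 0.65, adjusted p = 2.92e-22, edgeR). *Mrc1* (ENSMUSG00000026712, chromosome 2, 14229392 to 14332057, plus strand), the mannose receptor CD206, gave 2639.9, 1082 and 1508 in border macrophages and 3.40, 5.62 and 6.73 in microglia. Its log2 fold change was 8.11 (standard error 0.31, adjusted p = 3.97e-34, edgeR). For both genes the border macrophage sums of all 3 mice lay far above all 3 microglial sums.

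*Cd36* (ENSMUSG00000002944, chromosome 5, 17781690 to 17888801, minus strand), a receptor for oxidized lipoproteins and long-chain fatty acids, gave 288, 50.7 and 189 CPM in border macrophages. In microglia it gave 0.559, 0.742 and 0.278. The log2 fold change was 7.73 (standard error 0.97, adjusted p = 2.94e-09, edgeR), from 11 border macrophage UMIs. *Msr1* (ENSMUSG00000025044, chromosome 8, 39581685 to 39642673, minus strand), scavenger receptor A, gave 96.0, 118 and 283 in border macrophages and 1.77, 1.41 and 1.84 in microglia. Its log2 fold change was 6.25 (standard error 0.80, adjusted p = 7.52e-09, edgeR), from 12 UMIs. *Cd36* and *Msr1* were each tested in 11 of 15 alternatives and called higher there. With the filter on low counts, both are tested only where border macrophages reach its limit, so this agreement is no separate support.

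*Stab1* (ENSMUSG00000042286, chromosome 14, 31139013 to 31168641, minus strand), an endocytic receptor for acetylated lipoprotein and the matrix protein SPARC, was present in both cell types. It gave 2112, 913 and 1791 CPM in border macrophages and 260.0, 270.2 and 257 in microglia, with no overlap. The log2 fold change was 2.26 (standard error 0.21, adjusted p = 5.44e-14, edgeR), and −0.24 (adjusted p = 0.776) in the 3 cells of the stricter gate. *Lrp1* (ENSMUSG00000040249, chromosome 10, 127538161 to 127621148, minus strand), a large receptor for apolipoprotein E and protease complexes, was the member that was not called. It gave 375, 327 and 317 in microglia and 192, 169 and 283 in border macrophages. The border macrophage values lay below all microglial values, but the log2 fold change of −0.91 (standard error 0.38) had an adjusted p of 0.136 (edgeR). It rests on 17 UMIs in border macrophages, and it was called with the stricter gate (−2.60, adjusted p = 0.0234). None of the 10 genes shares its strand with an overlapping gene in the files.

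**Figure D2:**
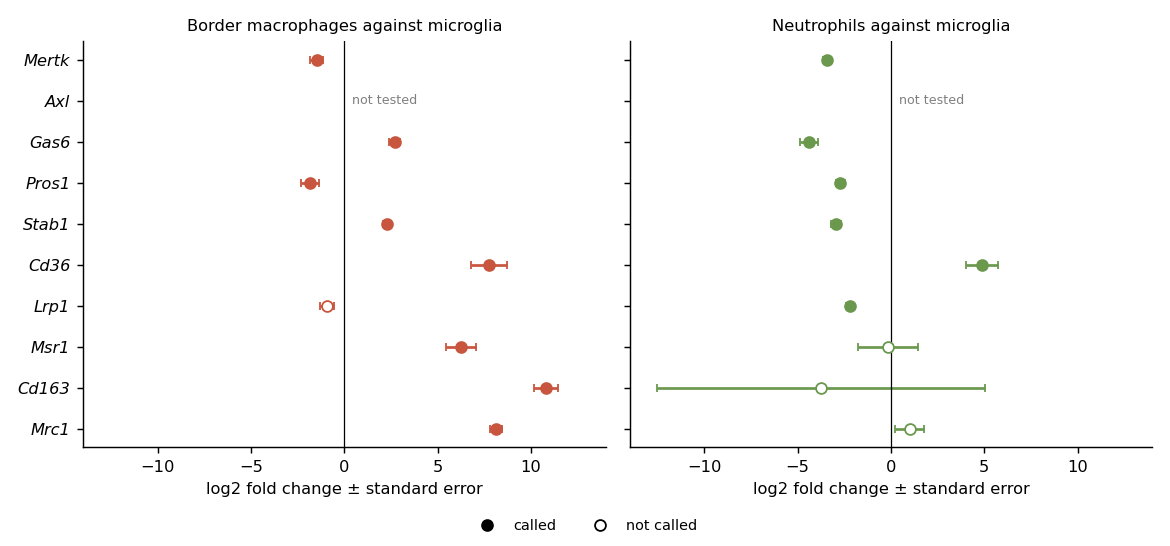
Log2 fold change and standard error (horizontal axis) of each gene for border macrophages and for neutrophils against microglia, with filled symbols for called genes. *Cd163* and *Mrc1* lie farthest to the right in border macrophages, at 10.81 and 8.11, and *Mertk*, *Gas6*, *Pros1*, *Stab1* and *Lrp1* all lie left of 0 in neutrophils.

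Neutrophils, short-lived phagocytes of the blood, carried little of any of these genes. *Mertk* gave 25.7, 16.1 and 12.1 CPM in the neutrophils of mice 1, 2 and 3, and *Lrp1* gave 33.8, 29.0 and 12.1. *Pros1* gave 16.2, 12.9 and 14.2, *Stab1* gave 20.3, 8.05 and 6.07, and *Gas6* gave 4.05, 0 and 2.02. Each of these values lay below every microglial value of the same gene. The 5 genes were called lower in neutrophils than in microglia, with log2 fold changes of −3.44 (*Mertk*), −4.41 (*Gas6*), −2.73 (*Pros1*), −2.93 (*Stab1*) and −2.22 (*Lrp1*). Standard errors ran from 0.21 to 0.50 (edgeR). The 7 microglial markers of the assignment summed to between 330 and 551 CPM in neutrophils and to between 11129 and 11575 in microglia. The part of RNA from microglia in the neutrophil levels was not tested. Of all genes tested 35.2% were called lower, 30.8% higher and 66.1% in either direction, so a call in this comparison is common. The comparison also depends on scaling, since the top 10 genes took 51.0% of neutrophil UMIs (*S100a9* alone 19.6%) and 16.9% of microglial UMIs. The median log2 fold change over all genes was −0.17 with TMM and −1.67 without normalization factors, and the calls went from 2414 higher and 2759 lower to 919 and 5857. The 5 genes were called lower under both scalings.

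*Cd36* was called higher in neutrophils than in microglia (log2 fold change 4.87, standard error 0.83, adjusted p = 5.39e-07, edgeR; 3.37 without normalization factors). The level behind this call was low, 6.76, 4.83 and 6.07 CPM against 0.559, 0.742 and 0.278, and its 11 UMIs lay in 4 of 304 cells. At 2000 UMIs per cell *Cd36* was seen in 3 of 304 neutrophils and, with the stricter gate, in 0 of 292, where it fell below the filter and was not tested. *Mrc1* was not called (log2 fold change 1.00, standard error 0.77, adjusted p = 0.244), and all of its 7 neutrophil UMIs came from mouse 1. Its direction turned with the setting, with −0.50 without normalization factors, 1.63 and a call (adjusted p = 0.0469) without mouse 2, and 2.47 with the V3.0 libraries alone (adjusted p = 0.00504). *Msr1* was not called (−0.15, adjusted p = 0.941). *Cd163* had 0 neutrophil UMIs, which allows up to 1.62 CPM, above the 0.215 of all microglia together, so no fold is given. *Axl* had 2 UMIs in neutrophils and was not tested. The monocytes, 75 cells, held *Lrp1* at 295, 346 and 224 CPM, *Msr1* at 64.4, 103 and 119.8 and *Cd36* at 0, 99.3 and 71.9. *Gas6*, *Cd163* and *Mrc1* had 0 UMIs in monocytes, which allows up to 4.97 CPM.

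The share of cells with at least 1 UMI gives the same genes cell by cell. The intervals below pool the cells of 3 mice and cover counting error only, not the spread between mice. To compare shares at 1 depth, each cell was drawn down to 2000 UMIs, which left out 666 microglia and no border macrophage or neutrophil. *Mertk* was seen in 65.3% of 17129 microglia (64.6% to 66.0%, exact 95% interval after Clopper and Pearson), in 10 of 19 border macrophages (52.6%, 28.9% to 75.6%) and in 2.30% of 304 neutrophils (0.931% to 4.69%). The border macrophage interval of *Mertk* holds the microglial share. *Lrp1* was seen in 47.8% of microglia, 47.4% of border macrophages and 4.28% of neutrophils. *Pros1* was seen in 40.4% of microglia, 15.8% of border macrophages and 2.30% of neutrophils, and *Stab1* in 38.5%, 78.9% and 1.97%. *Gas6* was seen in 21.4% of microglia, 63.2% of border macrophages and 0.658% of neutrophils. Over the 6 libraries the microglial share ran from 62.1% to 68.6% for *Mertk* and from 30.4% to 45.4% for *Stab1*.

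The low microglial shares are set beside those of neutrophils, at a median depth of 5721 UMIs per neutrophil and 3543 per microglial cell before the draw. Free RNA was not measured, and neutrophils may hold some of these transcripts themselves, so their shares are a comparison and not a pure background. *Mrc1* was seen in 0.788% of microglia (0.661% to 0.932%) and in 2 of 304 neutrophils (0.658%, 0.0798% to 2.36%), so its microglial share was near that of neutrophils. *Axl* was seen in 0.893% of microglia (0.758% to 1.05%) and in 1 of 304 neutrophils (0.329%, 0.00833% to 1.82%), an interval too wide to separate them. *Axl* was not spread evenly over microglia, since its level differed between groups of microglia given among the other observations. *Msr1* was seen in 0.350% of microglia, *Cd36* in 0.0701% and *Cd163* in 3 of 17129 (0.0175%), and the neutrophil intervals reached 1.21%, 2.86% and 1.21%. In border macrophages, *Mrc1* was seen in 84.2% of cells (60.4% to 96.6%), *Cd163* in 36.8% (16.3% to 61.6%), *Axl* in 26.3% (9.15% to 51.2%), *Cd36* in 21.1% (6.05% to 45.6%) and *Msr1* in 15.8% (3.38% to 39.6%). Among the 6 libraries, with 1 to 8 border macrophages each, these shares ran from 33.3% to 100% for *Mrc1*, from 0% to 50% for *Axl* and from 0% to 100% for *Cd163*, *Cd36* and *Msr1*. Without the draw the microglial share was 82.1% for *Mertk* and 1.34% for *Mrc1*.

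**Figure D3:**
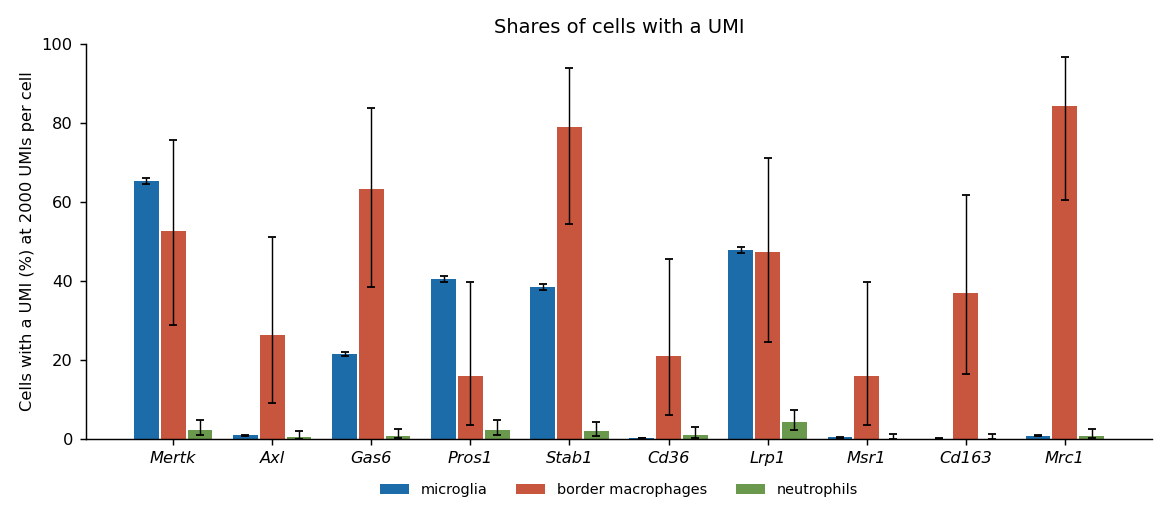
Percent of cells with at least 1 UMI of each gene (vertical axis, from 0) at 2000 UMIs per cell in 17129 microglia, 19 border macrophages and 304 neutrophils, with bars for the share and whiskers for the exact 95% interval. Microglia lead for *Mertk* and *Pros1*, border macrophages for *Mrc1*, *Cd163*, *Stab1* and *Gas6*, and no neutrophil share exceeds 4.28%.

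In mice 2 and 3, the few microglia that held a UMI of a border macrophage marker gene also held scavenger receptor UMIs more often. They numbered 29, 41 and 22 in mice 1, 2 and 3, 92 in all. *Mrc1* was seen in 1, 11 and 8 of them, against 1.03%, 1.08% and 1.68% of the other microglia of each mouse. *Axl* was seen in 1, 7 and 3 of them, against 1.71%, 1.68% and 1.17%. *Cd36* was seen in 0, 6 and 1, *Msr1* in 0, 4 and 2 and *Cd163* in 0, 3 and 0, against at most 0.645% of the others in any mouse. Mouse 1 thus held 1 cell each with *Mrc1* and *Axl* and none with the other 3. *Mertk* was seen in 89.7%, 87.8% and 90.9% of them and in 84.2%, 80.7% and 81.5% of the others. The 92 cells were deeper, with a median of 4184.5 UMIs against 3541, and the part of depth or of mixed droplets in these shares was not tested. At 2000 UMIs, border macrophages held UMIs of 5 of the 10 genes in the median cell, microglia of 2 and neutrophils of 0. At least 4 of the genes were detected in 73.7% of border macrophages, 10.9% of microglia and 0 neutrophils.

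Between the kits, no member was called in microglia. Of the 10 genes, 8 passed the filter on low counts in the comparison of V3.1 against V3.0 over library sums (11970 genes tested). Over all genes, 1.58% were called higher and 1.51% lower with V3.1, 3.09% in either direction. Of the 8, 0 were called by edgeR or by DESeq2, and 3 (*Axl*, *Gas6*, *Stab1*) had an unadjusted p below 0.05. The largest difference with a small error was that of *Stab1*. It gave 313, 316 and 325 CPM with V3.0 in mice 1, 2 and 3 and 193, 216 and 243 with V3.1, lower in each mouse and with no overlap between kits. Its log2 fold change was −0.53 (standard error 0.083, adjusted p = 0.00179, edgeR), past the p threshold and short of the fold threshold of 0.58. With the mouse as a block it was −0.54 (adjusted p = 4.19e-07), and without the V3.1 library of mouse 3 it was −0.62 and called (adjusted p = 0.000339). Without the V3.0 library of mouse 3 it was −0.51 (adjusted p = 0.0141, edgeR).

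*Axl* gave 5.83, 7.52 and 5.43 CPM with V3.0 and 5.18, 4.38 and 3.84 with V3.1 (log2 fold change −0.54, standard error 0.20, adjusted p = 0.0903). *Gas6* gave 153, 128 and 131 with V3.0 and 126, 119.7 and 113 with V3.1 (−0.19, standard error 0.078, adjusted p = 0.128). *Pros1* gave 269.6, 285 and 285 with V3.0 and 257, 267 and 258 with V3.1 (−0.09, standard error 0.065, adjusted p = 0.415). For *Axl*, *Gas6*, *Pros1* and *Stab1* every V3.0 library exceeded every V3.1 library, 4 of 10 genes, where 33.2% of all genes tested did not overlap in one direction or the other. *Mertk* (572 ± 24.9 against 554 ± 24.9, SD, n = 3 libraries each) and *Lrp1* (341 ± 39.7 against 337 ± 22.9) differed by less than the spread between libraries. *Mrc1* and *Msr1* stood a little higher with V3.1 (log2 fold changes 0.46 and 0.49, standard errors 0.27 and 0.35), with adjusted p of 0.280 and 0.376 (edgeR). *Cd36* and *Cd163* fell below the filter. The plot by kit joins the libraries of each mouse.

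**Figure D4:**
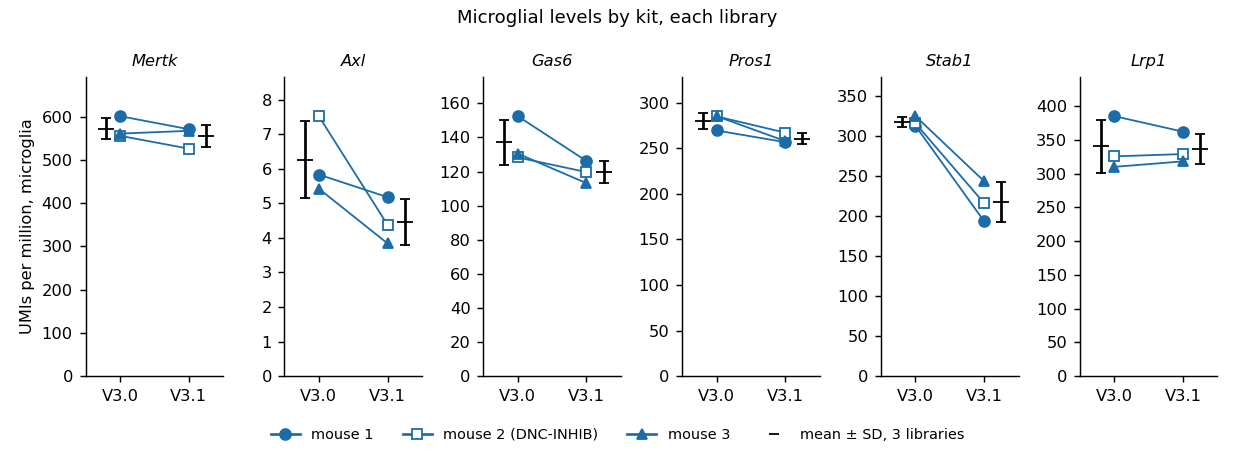
Microglial CPM (vertical axes, from 0, 1 scale per gene) of 6 genes with V3.0 and V3.1, with 1 line per mouse, the DNC-INHIB mouse open, and black bars for the mean ± SD of 3 libraries. *Stab1* lies between 313 and 325 with V3.0 and between 193 and 243 with V3.1, while the lines of *Mertk* and *Lrp1* run nearly level.

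The inhibitor cocktail was tested with 1 DNC-INHIB mouse against 2 DNC-NONE mice, so the spread comes from the DNC-NONE pair and the lone mouse is assumed to vary like them. Of the 10 genes, 9 were tested in microglia among 13127 genes, and 0 were called by edgeR or by DESeq2, where 0.305% of all genes were called (0.175% higher and 0.130% lower). None of the 9 had an unadjusted p below 0.05. *Mertk* (542 with inhibitors, 588 and 566 without), *Lrp1* (327 against 375 and 317) and *Stab1* (270.2 against 260.0 and 257) had log2 fold changes of −0.08 (standard error 0.092), −0.07 (standard error 0.11) and 0.08 (standard error 0.092). *Axl* gave 6.09 with inhibitors and 5.54 and 4.12 without (log2 fold change 0.34, standard error 0.22, adjusted p = 0.832, edgeR).

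Border macrophages vary in MHC class II (*Cd74*, *H2-Aa*, *H2-Ab1*, *H2-Eb1*), the antigen-presenting molecules, and the 19 cells were divided at 10 such UMIs per 10000 into 11 MHC class II-high and 8 MHC class II-low cells. No cell lay between 5 and 20 per 10000. The high cells numbered 1, 8 and 2 and the low cells 4, 3 and 1 in mice 1, 2 and 3, so values pooled over mice mix the division with the mouse. *Stab1* gave 286, 699.7 and 887 CPM in the high cells of mice 1, 2 and 3 and 2480.0, 1358 and 4415 in the low cells, with no overlap. *Gas6* gave 858, 549.8 and 0 in the high cells and 2134, 627 and 1104 in the low cells. *Mrc1* gave 1717, 1099.5 and 1014 in the high cells and 2826, 1044 and 2943 in the low cells, which overlap. Only these 3 genes passed the filter, among 166 genes, and 0 were called (edgeR and DESeq2; 3.61% of all genes tested were called, 3.01% higher and 0.602% lower). *Gas6* and *Stab1* had an unadjusted p below 0.05.

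The log2 fold changes of high against low cells were −1.92 for *Stab1* (standard error 0.60, adjusted p = 0.132), −1.67 for *Gas6* (standard error 0.74, adjusted p = 0.505) and −0.94 for *Mrc1* (standard error 0.53, adjusted p = 0.701) by edgeR. With a wider gate both *Stab1* (−2.18) and *Gas6* (−2.03) were called lower in the high cells (adjusted p = 0.00681 for each), and without mouse 2 *Stab1* was called (−2.53, adjusted p = 0.00836). *Cd163* held 27 UMIs in 6 of 8 low cells and 13 UMIs in 2 of 11 high cells, and gave 0, 325 and 0 CPM in the high cells of mice 1, 2 and 3 and 692, 627 and 1104 in the low cells. *Axl* held 14 UMIs in 8 of 11 high cells and 5 UMIs in 1 of 8 low cells. In mouse 2, the mouse with *Axl* in both groups, its levels were close, 275 CPM in high and 261 in low cells, and mouse 1 had 0 *Axl* UMIs in either. *Mertk* was seen in 7 of 11 high and 5 of 8 low cells. *Lyve1*, a hyaluronan receptor of perivascular macrophages, was seen in 4 of 8 low cells and 0 of 11 high cells. Of the dendritic cell markers, *Flt3*, *Xcr1*, *Clec9a* and *Ccr7* were at 0 in these 19 cells. The remaining marker, *Cd209a*, gave the whole sum of the list, 288, 0 and 0 CPM in mice 1, 2 and 3. Cells of 1 mouse are not replicates, so these cell counts carry no test.

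**Figure D5:**
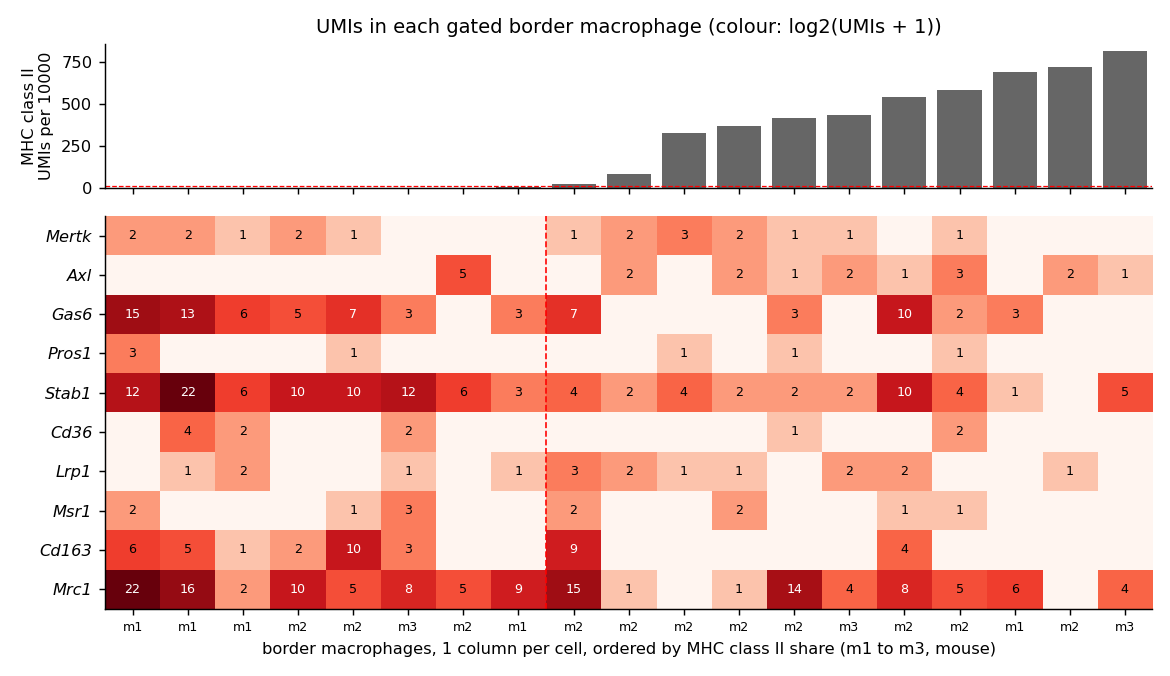
UMIs of each gene in each of the 19 border macrophages (numbers and colour, log2(UMIs + 1); 1 column per cell, marked by mouse), ordered by MHC class II UMIs per 10000 (bars above, with a dashed line at the division of 10). *Cd163* is seen in 6 of the 8 cells on the left and 2 of the 11 on the right, and 4 of the 8 come from mouse 1 while 8 of the 11 come from mouse 2.

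Related genes were counted from 2 lists, given here as counts beside those of all genes and with no test of the lists. Of 24 efferocytosis genes, 17 were tested in border macrophages against microglia, of which 1 was called higher and 3 lower, beside 3.74% and 4.47% of all genes tested. *Cd300lf*, a phosphatidylserine-binding receptor, was higher (log2 fold change 4.56, adjusted p = 0.00620, edgeR), from the border macrophages of mouse 2 alone. It passed the filter on low counts only through its neutrophil sums. *Havcr2*, which encodes the phosphatidylserine receptor TIM-3, gave 332 ± 7.03 CPM (SD, n = 3) in microglia and 42.7 ± 47.7 in border macrophages (−3.38, adjusted p = 1.57e-05). *Itgb5*, the β5 integrin that pairs with αv, gave 841 ± 38.0 and 293 ± 58.1 (−1.46, adjusted p = 0.000294). *Elmo1*, which relays engulfment signals to Rac, gave 478 ± 13.1 and 145 ± 43.6 (−2.03, adjusted p = 0.000115). Their levels thus stood with *Mertk* and *Pros1* on the microglial side. Of 22 scavenger and mannose receptor genes (21 in the files), 7 were tested and 2 were called higher. *Lyve1* (9.83, adjusted p = 1.85e-08, edgeR) gave 96.0, 84.5 and 94.3 CPM in border macrophages, from 2, 5 and 1 UMIs. In microglia it gave 0.0676 ± 0.0802. *Lyve1* passed the filter only through its border macrophage sums, so a call of lower was not possible and its call adds nothing to the levels. It is also one of the check genes of these cells. The other was *Cxcl16* (2.60, adjusted p = 5.82e-07, edgeR), a membrane chemokine that binds oxidized lipoprotein. *Cxcl16* gave 96.0, 524 and 94.3 CPM in border macrophages and 58.8 ± 2.68 in microglia.

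In neutrophils against microglia, 6 of 17 efferocytosis genes were called higher and 9 lower, and 2 of 7 scavenger genes higher and 5 lower, beside 30.8% and 35.2% of all genes tested. The higher ones with the largest changes in their lists included *Cd300lb*, *Cd300lf* and *Ly75*. *Cd300lb* gave 108 ± 10.9 CPM in neutrophils and 0.503 ± 0.165 in microglia. *Cd300lf* gave 161, 135 and 156, and 1.74 ± 0.502, and *Ly75* gave 56.9 ± 19.2 and 0.191 ± 0.0756. These genes passed the filter on low counts only through their neutrophil sums. The other scavenger gene called higher, *Lyve1*, passed it only through its border macrophage sums. For all of them a call of lower was not possible, so their calls, which are part of the counts above, add nothing to the levels. *Dock2*, an exchange factor for Rac, was called higher with TMM scaling (log2 fold change 0.87) although its CPM was lower, 114 ± 5.98 against 173 ± 1.85. With V3.1 against V3.0, 0 of 18 efferocytosis and 1 of 7 scavenger genes were called, the 1 being *Scarf2* (−0.79, adjusted p = 0.00327, edgeR), and with inhibitors against without, 0 of 19 and 0 of 11 by edgeR.

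Among the genes whose levels most resembled those of *Mertk* over the 9 sums of mouse and cell type were *Ly86* and *Pip4p1* (Pearson r of log2(CPM + 1) of 0.995 and 0.992 among 7827 genes). *Ly86*, which encodes MD-1, gave 2188 ± 62.6 CPM in microglia, 1063 ± 542 in border macrophages and 94.2 ± 29.8 in neutrophils. Those most like *Mrc1* were *Itsn1*, *Dab2* and *Apoe* (0.991, 0.988 and 0.986). *Dab2*, an adaptor for endocytosis, gave 12.9, 10.6 and 12.5 in microglia, 1264 ± 416 in border macrophages and 2.79 ± 3.53 in neutrophils. The 9 sums come from 3 mice and differ in depth by cell type, so these coefficients describe the order of the cell types more than of the mice.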

How the data were processed

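The data were 3′ single-cell UMI counts from CD45+/CD11b+ brain cells of 3 mice, each in a V3.0 and a V3.1 library sequenced together in 1 pool. The authors deposited raw counts of UMIs per gene and barcode from Cell Ranger 5.0.0 (mm10/GRCm38, filtered Ensembl annotation), without normalization and before removal of low-quality cells or doublets. Of 29412 barcodes, 19725 held 1000 to 4000 genes, up to 12000 UMIs and up to 15% of UMIs from mitochondrial genes. A cell was assigned to a type with at least 5 UMIs over at least 2 genes of that type's marker list. Every other list had to be at most 20% of it, which left out cells above that limit and kept those below it. No doublet caller was run. The 10 genes, the marker lists and the related lists were chosen with earlier results of these data known. Named genes were all 10, up to 4 called genes per direction of each related list, and the 3 genes most like *Mertk* and *Mrc1*. Some results under this rule, with 1 related list, are not reported here.

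UMIs were summed per mouse and cell type (border macrophages, neutrophils, microglia, 1 fit of 9 sums), per library (kits, 6 sums) or per mouse (inhibitors, 3 sums), and tested with edgeR 4.0.16 (glmQLFit, glmQLFTest, TMM, filterByExpr) in R 4.3.3, two-sided, with Benjamini-Hochberg adjustment. A call needed a log2 fold change over 0.58 in size and an adjusted p under 0.05. Standard errors are the log2 fold change over the root of the F statistic. The kits' libraries of a mouse hold the same animal's cells, so the replicate numbers pair them (correlations of their deviations 0.411, 0.679 and 0.203 over 500 genes). Scripts were tested on simulated data. Microglia gave between 17977959 and 25602680 UMIs per mouse and border macrophages between 10610 and 59169, which sets the precision of their values. Alternatives were DESeq2 1.42.0, RLE or no factors, no filter on low counts, other cell filters and gates, drawn-down cells, the mouse as a block, and libraries or mice left out. The wider gate, single kits for cell types, DNC-NONE mice alone for the kits and fits without factors were added after seeing the data. Interferon and disease-associated gene lists were likewise added after seeing the data, for description. Shares used numpy 2.4.6 with a fixed seed and scipy 1.17.1. Promoters came from RefSeq (GRCm38.p6), gene positions from GENCODE on GRCm38.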

Additional observations from a re-analysis of the deposited data

Results flagged for a closer look

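In the V3.0 library of mouse 3, 21.5% of barcodes passed the cell filter, against 70.0% to 76.8% in the other 5 libraries, a gap that stands apart by Dixon's criterion for 6 values. Of 12 groups of libraries examined this was the only one, and 0.6 would be expected by chance. The library held a median of 809 UMIs per barcode and gave 872 of the 17795 microglia. Without it, the members called in border macrophages against microglia numbered 6 higher and 2 lower and those in neutrophils 1 higher and 5 lower, as with it.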

How the results depend on the processing

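Of the members' fitted values under other settings, 436 kept direction and call and 21 changed sign. With the sign kept, 9 gained and 3 lost a call. *Gas6* and *Stab1* in border macrophages, counted among the changed signs, also lost their calls with the stricter gate. The causes were not tested unless fewer cells or libraries are named. In border macrophages against microglia (293 genes higher, 350 lower), genes called higher numbered 607 with DESeq2, 32 with the stricter gate of 3 cells, 173 with cells drawn down to 2000 UMIs, 70 with V3.1 alone and 529 with the wider gate, and genes lower 218 with V3.0 alone. Members higher numbered 0 with the stricter gate and 3 with V3.0 alone, members lower 1 drawn down and 1 with V3.0 alone, and *Gas6* (−0.60) and *Stab1* (−0.24) changed sign with the stricter gate. Leaving out a library or mouse gave 108 to 282 genes higher, 182 to 266 lower and 1 to 2 members lower, the call lost being *Pros1* without mouse 2.

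In neutrophils against microglia, genes higher and lower numbered 1350 and 1403 drawn down, 1546 and 1609 with V3.0 alone, and 919 and 5857 without normalization factors. Members higher numbered 0 with the stricter gate, drawn down or with V3.1 alone, where *Cd36* fell below the filter, and 1 to 2 with a library or mouse left out. *Cd163* was 1.93 with DESeq2, and *Mrc1* −7.56 with V3.1 alone and −0.50 without factors. With 1 mouse left out *Mrc1* ran from −8.50 to 1.63 and *Msr1* from −6.57 to 0.35.

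Between kits (189 higher, 181 lower), genes higher numbered 294 without the filter on low counts, 108 with the stricter gate and 75 in DNC-NONE mice, where 73 were lower. *Lrp1* was 0.014 with the stricter gate, 0.0039 drawn down and 0.0016 with the replicate block, and −0.064 to 0.088 with a library left out. *Mertk* ran from −0.049 to 0.0017, and members lower from 0 to 1.

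For the inhibitors (23 higher, 17 lower), genes higher numbered 8 with DESeq2, 35 with RLE factors, 58 without the filter, 42 with V3.0 alone and 9 with V3.1 alone. Genes lower numbered 6 with DESeq2, 68 without the filter, 9 with at least 500 genes per cell, 28 with the stricter gate, 43 with V3.0 alone and 2 with V3.1 alone. Without the V3.0 library of mouse 3 there were 44 higher and 47 lower. With V3.1 alone *Axl* was −0.012, *Gas6* 0.010, *Stab1* −0.011 and *Msr1* 0.21, and *Mrc1* was −0.15 drawn down.

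In MHC class II-high against MHC class II-low cells, genes higher numbered 0 with the stricter gate. Genes lower (1) numbered 0 with DESeq2, without the filter, with the stricter gate and with the replicate block, 2 with at least 500 genes per cell, 4 drawn down, 4 with the wider gate, 2 with the division at the median, and 0 to 4 with a library or mouse left out. Members lower numbered 1 with at least 500 genes per cell, 1 drawn down, 2 with the wider gate, and 0 to 1 with a library or mouse left out.

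With the mouse as the replicate block the calls numbered 270 higher and 340 lower in border macrophages, 2375 and 2673 in neutrophils and 276 and 267 between kits, and no member's call changed. Shares moved by more than the spread between libraries in 34 cases of 120, 15 of them without drawing down. Border macrophage values rest on 19 cells, which is what depth limits most.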

Other observations

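Microglia with at least 4 UMIs of 7 interferon-response genes (*Ifitm3*, *Ifit3*, *Irf7*, *Isg15*, *Bst2*, *Ifit2*, *Oasl2*), 640 cells or between 3.40% and 3.82% of the microglia of each mouse, held more *Axl* than the rest. *Axl* gave 22.7, 46.3 and 41.9 CPM in them and 4.85, 4.14 and 2.55 in the other 17155, higher in 3 of 3 mice, from 104 UMIs. *Mrc1* gave 3.59, 32.8 and 29.3 against 3.39, 4.30 and 5.79. *Mertk* (485 ± 40.7 against 569 ± 22.1, SD, n = 3 mice) and *Stab1* (191 ± 33.8 against 266 ± 5.85) were lower in these cells in 3 of 3 mice. So were *Gas6* (113 ± 9.02 against 128 ± 12.7), *Pros1* (251 ± 11.4 against 269 ± 8.14) and *Lrp1* (315 ± 7.82 against 341 ± 32.0). The median depth of these cells was 3930.5 UMIs against 3532. The list and the limit of 4 UMIs were chosen after the data were seen, so no test is given.

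Microglia with at least 4 UMIs of 7 disease-associated genes (*Lpl*, *Cst7*, *Spp1*, *Itgax*, *Igf1*, *Gpnmb*, *Csf1*) numbered 39, with 17, 17 and 5 in mice 1, 2 and 3. In them *Axl* gave 113, 124 and 0 CPM against 5.06, 5.65 and 4.12 in the rest, from 23 UMIs. The values of mouse 3 thus rest on 5 cells. *Mertk* gave 389, 383 and 381 against 589, 543 and 566, and *Pros1* 164, 155 and 95.3 against 264, 277 and 263. *Stab1* gave 133, 114 and 47.7 against 261, 271 and 258. *Lrp1*, at 389, 372 and 334 against 375, 327 and 317, was higher in 3 of 3 mice, and *Gas6* was higher in 1. The median depth was 5375 UMIs in these cells and 3542 in the rest.

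Over the 3 mice together, the 1504 cells assigned to no type held *Axl* at 34.2 CPM, *Cd36* at 58.6 and *Mrc1* at 69.2, with *Mertk* at 429. Pooled in this way, *Axl*, *Cd36* and *Mrc1* lay between the microglial and the border macrophage levels. By mouse this did not always hold. *Axl* in mouse 1 (28.0 CPM against 0) and *Cd36* in mouse 2 (117 against 50.7) lay above the border macrophages of the same mouse.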
